A study of Mus musculus with 6 samples.

Results

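Cholesterol leaves a cell, is stored in it, or signals in it through a small set of proteins, and 10 genes that encode such proteins were examined in whole B16-F10 tumors: *Nr1h3* and *Nr1h2*, which encode the liver X receptors LXRα and LXRβ, *Abca1*, *Abcg1*, *Apoe*, *Mylip*, *Npc1*, *Npc2*, *Soat1* and *Ch25h*. They were chosen by symbol from the 21358 entries of the deposited table, each was found once, and all 10 were among the 14172 genes with a mean level high enough to be tested. The tumors came from C57BL/6 mice implanted with B16-F10, a melanoma line of that strain that expresses the antigen gp100. All of the mice had been irradiated to deplete their own lymphocytes and had been given adoptive cell transfer (ACT) of splenocytes from pmel-1 mice. These donors are transgenic for a T cell receptor that recognizes gp100, and their splenocytes had been cultured with gp100 peptide and IL-2, so the transferred cells were a culture and not a sorted clone. The ACT + IL-2 group then received recombinant human IL-2 by intraperitoneal injection in repeated short courses. The ACT + NKTR-214 group received NKTR-214, an IL-2 that carries releasable polyethylene glycol chains, intravenously, once in each course. Tumors were taken at day 12, with 3 mice per group and 1 library per tumor, and no group without ACT was analysed here. Melanocyte genes were high in all 6 tumors, with *Tyrp1*, a pigment enzyme, between 726 and 2209 FPKM (read fragments scaled to the exon length of the gene and to the size of the library).

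LXRα and LXRβ are nuclear receptors that sense oxysterols, the oxidized forms of cholesterol, and act on DNA as heterodimers with retinoid X receptors (RXRs). When bound by ligand they turn on genes that move cholesterol out of the cell, and macrophages, which take up lipid from dying cells, are a cell type in which this program is well known. ABCA1 passes cholesterol and phospholipid to lipid-poor apolipoproteins, ABCG1 passes cholesterol to lipoprotein particles, and apolipoprotein E carries it away. Mylip (also called IDOL) is a ubiquitin ligase that limits the uptake of lipoproteins. NPC2 and NPC1 hand cholesterol out of the lysosome, SOAT1 esterifies it for storage in lipid droplets, and cholesterol 25-hydroxylase, the product of *Ch25h*, makes 25-hydroxycholesterol.

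All 10 genes had a higher mean FPKM in ACT + NKTR-214 tumors than in ACT + IL-2 tumors. The groups were compared with limma, a linear model that shares information on variance across genes, on log2(FPKM + 1), with Benjamini-Hochberg adjustment over all genes tested and a threshold of 0.05. At that threshold 8 of the 10 genes were higher (*Abcg1*, *Abca1*, *Apoe*, *Npc2*, *Nr1h3*, *Ch25h*, *Mylip* and *Soat1*), where 20.7% of all genes tested were called higher and 8.28% were called lower (29.0% in either direction). None of the 10 was lower, with a count of 0 also at an unadjusted p under 0.05. The median log2 fold change was 0.84 over the 10 genes and 0.05 over all genes tested. In 8 of the 10 genes every ACT + NKTR-214 tumor was above every ACT + IL-2 tumor, against 27.1% of all genes tested (42.4% in either direction). The exceptions were *Nr1h3* and *Nr1h2*. Because 1 is added to each FPKM, the log2 fold change of a gene with low values comes out smaller than the ratio of its means.

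**Figure D1:**
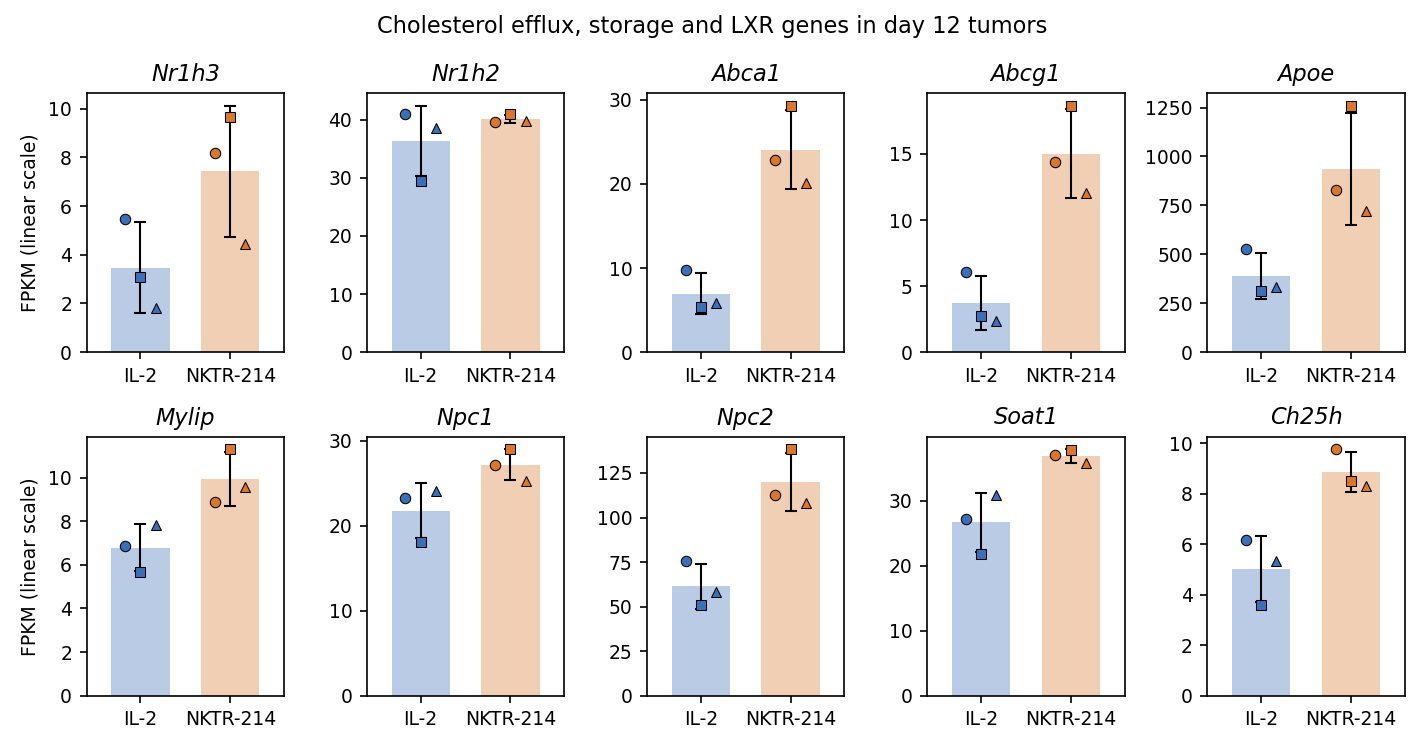
FPKM (linear scale, each panel from 0) of the 10 genes in the 3 ACT + IL-2 tumors (blue) and the 3 ACT + NKTR-214 tumors (orange). Bars are means, error bars are SD, and circles, squares and triangles are replicates 1, 2 and 3. The orange points lie above all blue points except for *Nr1h3* and *Nr1h2*.

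The tumors did not differ only in these genes. All 12 macrophage and monocyte markers were called higher in ACT + NKTR-214, with a summed level of 413 to 1200 FPKM in ACT + IL-2 and 1860 to 3310 FPKM in ACT + NKTR-214, and so were all 8 T cell markers, with sums of 13.5 to 31.0 and 167 to 357 FPKM. All 6 fibroblast and pericyte markers were higher (218 to 644 and 581 to 1160 FPKM), and 6 of 8 melanocyte markers were lower (5600 to 7180 and 2760 to 3900 FPKM). Among endothelial markers 1 of 5 was higher (23.2 to 52.2 and 36.7 to 73.3 FPKM), among adipocyte markers 1 of 4 was higher (1.03 to 10.2 and 3.07 to 26.0 FPKM), and 3 of 4 skeletal muscle markers were lower (28.5 to 73.9 and 24.7 to 33.5 FPKM). B cell markers summed to 0.85 to 1.97 and 0.96 to 1.54 FPKM, with *Ms4a1* among those listed at 0 in several tumors, and 2 of the 4 could be tested, of which none was called. In bulk tumors, more cells of a type and more RNA per cell cannot be told apart, and the part of these shifts in the results for the 10 genes was not tested. The sum of FPKM over the whole table was lowest in ACT + IL-2 replicate 2, at 176419.8, and lay between 217581.4 and 246513.7 in the other tumors.

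To show the DNA just before the genes that are known LXR targets, the 250 bases upstream of the transcription start are given for *Abca1*, *Apoe* and *Mylip*, read on the strand of the gene from the RefSeq promoter table for GRCm38.p6. The windows were searched on both strands for the TATA box (TATAAA), the CCAAT box (CCAAT), the GC box (GGGCGG), the E-box (CACGTG), a STAT-type repeat (TTCNNNGAA), an interferon-type repeat (GAAA, 2 bases of any kind, GAAA) and DR4, the repeat that LXR and RXR bind together (AGGTCA, 4 bases of any kind, AGGTCA, with at most 3 mismatches). Matches are in capitals. The *Abca1* window is chr4:53159896-53160145, minus strand, the first of the *Apoe* windows is chr7:19699189-19699438, minus strand, and the *Mylip* window is chr13:45389492-45389741, plus strand.
Abca1: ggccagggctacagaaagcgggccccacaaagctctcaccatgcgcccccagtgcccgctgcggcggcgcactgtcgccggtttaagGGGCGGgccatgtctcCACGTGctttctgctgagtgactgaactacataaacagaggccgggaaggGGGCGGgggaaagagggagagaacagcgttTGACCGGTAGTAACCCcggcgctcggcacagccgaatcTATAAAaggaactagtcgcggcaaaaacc
Apoe: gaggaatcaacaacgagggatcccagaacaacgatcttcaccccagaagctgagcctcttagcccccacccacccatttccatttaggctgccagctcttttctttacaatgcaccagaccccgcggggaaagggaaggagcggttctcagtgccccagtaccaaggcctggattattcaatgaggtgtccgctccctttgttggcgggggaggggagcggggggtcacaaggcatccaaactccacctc
Mylip: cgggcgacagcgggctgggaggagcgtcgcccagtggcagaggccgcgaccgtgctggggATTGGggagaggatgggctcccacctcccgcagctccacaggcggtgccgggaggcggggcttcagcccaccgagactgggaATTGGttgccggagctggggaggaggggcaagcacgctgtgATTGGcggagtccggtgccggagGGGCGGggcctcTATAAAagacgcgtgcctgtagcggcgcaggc

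The *Abca1* window held 1 TATA box, 2 GC boxes, 1 E-box and 1 DR4 match, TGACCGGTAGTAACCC, which lies 67 to 52 bases before the start and differs from the repeat at 3 positions. The *Mylip* window held 1 TATA box, 1 GC box and 3 CCAAT boxes, which read ATTGG on the strand shown. The *Apoe* window shown held none of the letters searched, and another of the 3 *Apoe* windows, chr7:19698622-19698871, held 2 TATA boxes. A window was given for 8 of the 10 genes, with 11 windows in all and none for *Abcg1* and *Npc1*, and the *Abca1* window was the only one of the 11 with a DR4 match. Such matches are frequent, since 18.5% of all 32536 promoter windows held a DR4 match at this tolerance, 12.3% a TATA box, 33.8% a CCAAT box, 33.0% a GC box and 6.04% an E-box. The STAT-type and interferon-type repeats were in 7.04% and 2.98% of all windows and in none of the 11. These are matches of letters and were not tested as binding sites.

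Of the receptor genes, *Nr1h3* passed the test and *Nr1h2* did not. *Nr1h3* (LXRα, chr2:91184061-91202834, minus strand, GENCODE vM21 on GRCm38) was at 5.49, 3.10 and 1.80 FPKM in the ACT + IL-2 tumors, in the order of replicates 1, 2 and 3 used throughout, and at 8.16, 9.67 and 4.44 FPKM in the ACT + NKTR-214 tumors. The groups overlapped, because ACT + IL-2 replicate 1 was above ACT + NKTR-214 replicate 3. The means were 3.47 ± 1.87 and 7.42 ± 2.69 FPKM (SD, n = 3 each), 2.14-fold apart, and the log2 fold change of 0.94 (SE 0.27, 95% interval 0.36 to 1.53) passed the limma test at an adjusted p of 0.0163. This call was lost under scaling to the 75th percentile (adjusted p = 0.07), under quantile normalization (0.0688), with no minimum level (0.105), and without ACT + IL-2 replicate 2 (0.136) or ACT + IL-2 replicate 3 (0.0566), all in limma. Without ACT + IL-2 replicate 3, the lowest tumor for this gene, the log2 fold change was 0.65.

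*Nr1h2* (LXRβ, chr7:44549616-44553951, minus strand) was the more abundant receptor in every tumor. It measured 40.9, 29.5 and 38.7 FPKM in the ACT + IL-2 tumors and 39.7, 40.9 and 39.8 FPKM in the ACT + NKTR-214 tumors. The groups overlapped, and only ACT + IL-2 replicate 2 stood below the rest. The means were 36.4 ± 6.03 and 40.1 ± 0.668 FPKM, and the log2 fold change of 0.15 (SE 0.15, 95% interval -0.18 to 0.48) did not pass the test (adjusted p = 0.503) in this fit or in any of the 14 alternatives. Without ACT + IL-2 replicate 2 it was 0.01. The log2 ratio of *Nr1h3* to *Nr1h2* was -3.14 ± 0.6 in ACT + IL-2 and -2.34 ± 0.5 in ACT + NKTR-214 (SD, n = 3). The groups overlapped, and the difference was 0.79, or 0.45 without ACT + IL-2 replicate 3. With all tumors it did not pass an exact two-sided permutation test (p = 0.3). That test cannot give a p below 0.1 with 3 tumors against 3.

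*Abca1* (chr4:53030787-53159895, minus strand) and *Abcg1* (chr17:31057675-31117988, plus strand) had the largest changes among the 10 genes. *Abca1* measured 9.74, 5.32 and 5.86 FPKM in the ACT + IL-2 tumors and 22.8, 29.3 and 20.2 FPKM in the ACT + NKTR-214 tumors. Even its lowest ACT + NKTR-214 tumor was well above its highest ACT + IL-2 tumor. The means of 6.97 ± 2.41 and 24.1 ± 4.69 FPKM were 3.46-fold apart, with a log2 fold change of 1.68 (SE 0.2, 95% interval 1.26 to 2.1, limma adjusted p = 1.1e-05).

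*Abcg1* measured 6.08, 2.73 and 2.33 FPKM under ACT + IL-2 and 14.4, 18.6 and 12.0 FPKM under ACT + NKTR-214. Its tumors ranked much as those of *Abca1* did, with replicate 1 of ACT + IL-2 and replicate 2 of ACT + NKTR-214 highest in their groups and no overlap. The means of 3.71 ± 2.06 and 15.0 ± 3.35 FPKM were 4.04-fold apart, with a log2 fold change of 1.83 (SE 0.24, 95% interval 1.32 to 2.34, limma adjusted p = 3.14e-05). Both transporter calls held in 13 of 14 alternatives, including all 6 in which a tumor was left out.

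*Apoe* (chr7:19696109-19699188, minus strand) was the most abundant of the 10 genes in both groups. It reached 526, 315 and 333 FPKM in the ACT + IL-2 tumors and 826, 1259 and 723 FPKM in the ACT + NKTR-214 tumors, without overlap. ACT + NKTR-214 replicate 2 was the highest tumor here too. The means of 391 ± 117 and 936 ± 284 FPKM were 2.39-fold apart, with a log2 fold change of 1.25 (SE 0.29, 95% interval 0.64 to 1.87, limma adjusted p = 0.00399). Quantile normalization lowered the log2 fold change to 0.66 (adjusted p = 0.0432), and with no minimum level the call was lost (adjusted p = 0.0536).

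*Mylip* (chr13:45389742-45412022, plus strand) changed less. Its values were 6.86, 5.67 and 7.81 FPKM in ACT + IL-2 and 8.90, 11.3 and 9.56 FPKM in ACT + NKTR-214. The groups did not overlap, but the nearest tumors, replicate 3 of ACT + IL-2 and replicate 1 of ACT + NKTR-214, lay close together. The means of 6.78 ± 1.07 and 9.92 ± 1.24 FPKM were 1.46-fold apart, with a log2 fold change of 0.49 (SE 0.16, 95% interval 0.16 to 0.83, limma adjusted p = 0.0287). The call was lost without ACT + IL-2 replicate 2 (adjusted p = 0.0651), without ACT + NKTR-214 replicate 2 (0.167) and with no minimum level (0.0542).

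Of the genes of lysosomal cholesterol egress, *Npc2* passed the test and *Npc1* did not. *Npc2* (chr12:84754562-84773152, minus strand), which encodes the soluble carrier of the lysosome lumen, measured 75.4, 50.8 and 58.4 FPKM in ACT + IL-2 and 113, 138 and 108 FPKM in ACT + NKTR-214. All 3 ACT + NKTR-214 tumors were clearly above the others. The means of 61.5 ± 12.6 and 120 ± 16.2 FPKM were 1.95-fold apart, with a log2 fold change of 0.96 (SE 0.18, 95% interval 0.58 to 1.34, limma adjusted p = 0.000786), and the call held in 13 of 14 alternatives.

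*Npc1* (chr18:12189692-12236400, minus strand), which encodes the membrane protein that receives cholesterol from NPC2, measured 23.3, 18.1 and 24.0 FPKM in ACT + IL-2 and 27.2, 29.0 and 25.3 FPKM in ACT + NKTR-214. The groups did not overlap, although replicate 3 of ACT + IL-2 came close to replicate 3 of ACT + NKTR-214. The log2 fold change of 0.31 (SE 0.15) did not pass the test (limma adjusted p = 0.133), with an upper 95% limit of 0.63 and a lower limit just under 0. It passed under scaling to the 75th percentile (adjusted p = 0.0128) and under quantile normalization (0.0154), at a log2 fold change of 0.23 in both. Without ACT + IL-2 replicate 2 it was 0.19 and did not pass. Of its exon bases 5.31% overlap genes on the other strand, and whether the authors counted by strand is not given in the sources used here. The log2 ratio of *Npc2* to *Npc1* was 1.65, 1.44 and 1.24 in the ACT + IL-2 tumors and 2.01, 2.22 and 2.05 in the ACT + NKTR-214 tumors. The ratio was higher in every ACT + NKTR-214 tumor, by 0.65 on average (exact two-sided permutation p = 0.1, the smallest possible, and 0.2 after adjustment over 4 such ratios).

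*Soat1* (chr1:156424525-156474331, minus strand), the gene of the storage enzyme, measured 27.2, 21.9 and 30.9 FPKM in ACT + IL-2 and 37.0, 37.8 and 35.8 FPKM in ACT + NKTR-214. The ACT + NKTR-214 tumors were nearly level with each other and above all ACT + IL-2 tumors. The means of 26.7 ± 4.56 and 36.9 ± 1.05 FPKM were 1.38-fold apart, with a log2 fold change of 0.47 (SE 0.15, 95% interval 0.14 to 0.79, limma adjusted p = 0.0312). The call was lost without ACT + NKTR-214 replicate 1 (adjusted p = 0.0864) or ACT + NKTR-214 replicate 2 (0.0998). *Nceh1*, which encodes a hydrolase that frees stored cholesterol again, had a log2 fold change of -0.06 (SE 0.16, limma adjusted p = 0.814). The log2 ratio of *Soat1* to *Nceh1* went from -0.31 ± 0.07 in ACT + IL-2 to 0.22 ± 0.18 in ACT + NKTR-214 (SD, n = 3), a difference of 0.53 without overlap (exact two-sided permutation p = 0.1, adjusted 0.2).

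*Ch25h* (chr19:34473778-34475164, minus strand, a single exon of 1387 bases) measured 6.15, 3.59 and 5.35 FPKM in ACT + IL-2 and 9.76, 8.52 and 8.30 FPKM in ACT + NKTR-214. It was the only one of the 10 genes whose highest ACT + NKTR-214 value was in replicate 1. The means of 5.03 ± 1.31 and 8.86 ± 0.787 FPKM were 1.76-fold apart, with a log2 fold change of 0.73 (SE 0.17, 95% interval 0.36 to 1.1, limma adjusted p = 0.00502), and the call held in 13 of 14 alternatives. Of its exon, 11.5% overlaps a gene on the other strand, *Gm26902*. *Cyp7b1*, which encodes the enzyme that breaks 25-hydroxycholesterol down, also rose, from 0.418 ± 0.175 to 2.25 ± 0.735 FPKM (log2 fold change 1.18, SE 0.15, limma adjusted p = 2.95e-05). The log2 ratio of *Ch25h* to *Cyp7b1* was 2.07 ± 0.23 and 1.62 ± 0.34, a difference of -0.45 with overlap (exact two-sided permutation p = 0.2, adjusted 0.267), and this size depends on the pseudocount, since it was -1.35 with 0.1 in place of 1. Without ACT + NKTR-214 replicate 2 it was -0.25.

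**Figure D2:**
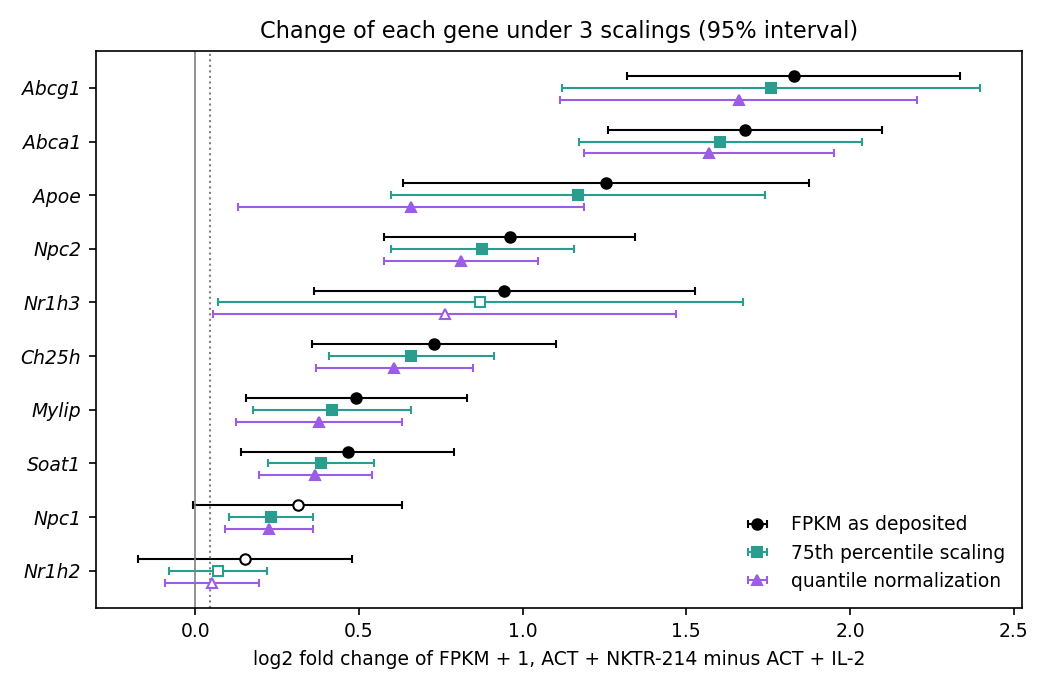
Log2 fold change of FPKM + 1 (ACT + NKTR-214 minus ACT + IL-2, 3 tumors each) with its 95% interval for each of the 10 genes, from the FPKM values as deposited (black circles), after scaling to the 75th percentile (green squares) and after quantile normalization (purple triangles). Filled symbols passed the adjusted p threshold, and the dotted line is the median of all genes tested. All symbols lie right of 0, *Nr1h3* is filled in black only, and *Apoe* drops from 1.25 to 0.66 under quantile normalization.

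FPKM is scaled to exon length, so levels can be set side by side. In ACT + IL-2 tumors the mean levels ran, from the highest, *Apoe*, *Npc2*, *Nr1h2*, *Soat1*, *Npc1*, *Abca1*, *Mylip*, *Ch25h*, *Abcg1* and *Nr1h3*. Neighbours in this order overlapped between tumors except at 3 steps, from *Apoe* to *Npc2*, from *Npc2* to *Nr1h2* and from *Npc1* to *Abca1*. In ACT + NKTR-214 tumors *Abcg1* stood above *Mylip* and *Ch25h*, without overlapping *Mylip*, and *Abca1* overlapped *Npc1*. *Nr1h3* was last in both groups. The smallest number of reads behind any of these values was about 95, for *Nr1h3* in ACT + IL-2 replicate 3, where counting error alone gives a 95% interval of -19.1% to 22.2% around the value. The next smallest was about 114 reads for *Ch25h* in ACT + IL-2 replicate 2. Read numbers were inferred from the step between low FPKM values, which placed the libraries between 20900000 and 24700000 fragments. They are approximate, since the exon lengths the authors used are not given in the sources used here and only 90 of the 340 low genes with an exon length in GENCODE lay near the most frequent depth.

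Within each group the same tumors tended to be high. ACT + IL-2 replicate 1 was the highest tumor of its group for 7 of the 10 genes and replicate 2 the lowest for 8, while ACT + NKTR-214 replicate 2 was the highest for 9 and replicate 3 the lowest for 8. Macrophage, T cell, fibroblast and endothelial marker sums were also highest in these tumors, replicate 1 of ACT + IL-2 and replicate 2 of ACT + NKTR-214. The lowest tumors matched less well, since the macrophage, T cell and fibroblast sums of ACT + IL-2 were lowest in replicate 3 and the fibroblast sum of ACT + NKTR-214 in replicate 1. Relative to the mean log2 level of the 12 macrophage markers in the same tumor, *Abca1* was at -1.85 ± 0.38 in ACT + IL-2 and -1.86 ± 0.09 in ACT + NKTR-214 (SD, n = 3; exact two-sided permutation p = 1.0). *Abcg1* was at -2.65 ± 0.16 and -2.51 ± 0.06 on the same scale (p = 0.2, exact permutation), a difference of 0.14 that was 0.06 without ACT + IL-2 replicate 1, 0.21 without replicate 3 of that group and 0.33 with a pseudocount of 0.1. *Apoe* was at 3.78 ± 0.37 and 3.34 ± 0.08 (p = 0.2, exact permutation), a difference of -0.43 that was -0.25 without ACT + IL-2 replicate 3 and -0.85 under quantile normalization. The other 7 genes were lower relative to these markers in every ACT + NKTR-214 tumor than in every ACT + IL-2 tumor, by 0.73 for *Npc2* and 0.74 for *Nr1h3* up to 1.54 for *Nr1h2* (exact two-sided permutation p = 0.1 each, 0.143 after adjustment over the 10 genes). Without ACT + IL-2 replicate 3 the differences were -0.47 for *Npc2* and -0.62 for *Ch25h*, against -0.73 and -0.96 with all tumors. The macrophage marker mean itself was 1.69 higher in ACT + NKTR-214, beside log2 fold changes of 1.68 for *Abca1* and 1.83 for *Abcg1*. A gene that rose by less than the markers is lower on the relative scale by construction, so these values are no separate test of the genes.

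**Figure D3:**
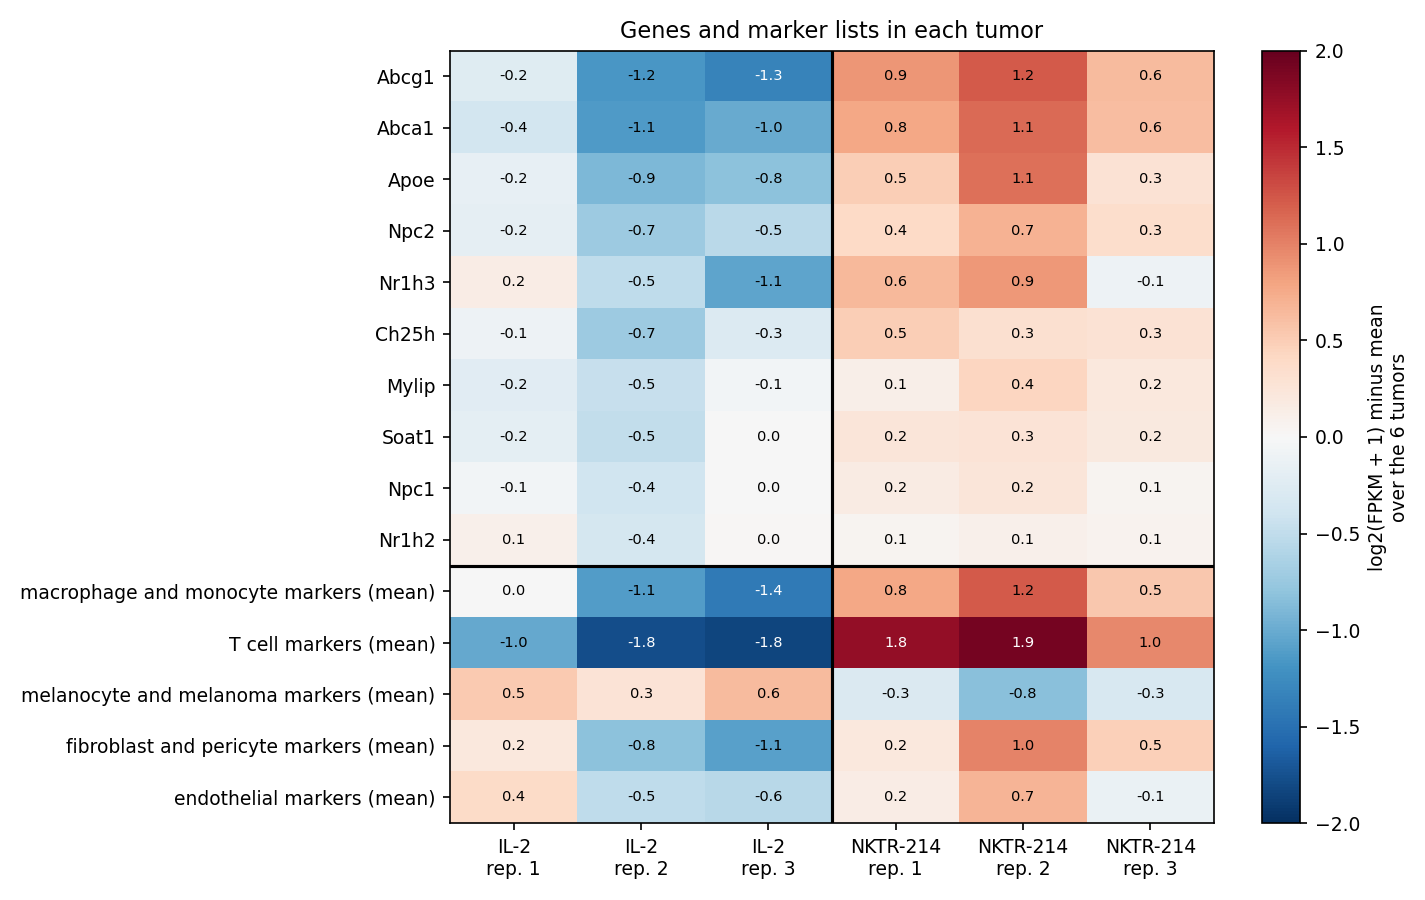
Log2(FPKM + 1) of the 10 genes (top) and the mean over the markers of 5 cell types (bottom) in each of the 6 tumors, as the difference from the mean over the tumors (color scale and printed value; red is high, blue is low). The efflux genes at the top and the macrophage, T cell, fibroblast and endothelial markers are all highest in ACT + NKTR-214 replicate 2, while *Npc1* and *Nr1h2* vary little.

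Likeness between genes was measured as the root mean square difference of their log2 levels over the 6 tumors after each gene was centred on its own mean, which counts the difference between the groups as well as that within them. Among the 10 genes the closest pairs were *Mylip* with *Soat1* and *Npc1* with *Soat1*, at 0.09 each. *Abca1* and *Abcg1* differed by 0.15. Among 11548 genes with a mean of at least 1 FPKM, *Abca1* was most like *Msr1*, a macrophage scavenger receptor (0.056), *Cyba*, a subunit of the phagocyte oxidase (0.059), and *Osm*, the cytokine oncostatin M (0.065). *Abcg1* was most like *Rftn1* (0.05) and *Nckap1l*, a regulator of actin in blood cells (0.065). *Apoe* had *Ece1* (0.06), *Ier5* (0.07) and the RNA sensor *Tlr7* (0.077) nearest to it.

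*Npc2* was closest to *Ptgir*, the prostacyclin receptor (0.036), *Acox3*, a peroxisomal oxidase (0.046), and *Creg1* (0.049). For *Nr1h3* the nearest genes were *Fam26f* (0.101), *Ubd*, a ubiquitin-like protein (0.112), and *Prkcb*, a protein kinase C (0.118). *Ch25h* was nearest to *Gadd45a* (0.056), *Vim*, which encodes vimentin (0.076), and *Anxa4* (0.08). *Mylip* was closest to *Prr7* (0.05), *Nudt8* (0.051) and *Ubald2* (0.054), and *Soat1* to *Mia2* (0.024), *Pcsk4* (0.036) and *Gpr146* (0.04).

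The other genes of the pathway were counted from lists by role. Of 51 such genes 45 were tested, 27 were higher and 3 were lower, where 20.7% and 8.28% of all genes tested were called so, with a median log2 fold change of 0.49 against 0.05 over all genes tested. Without ACT + IL-2 replicate 2 the count of higher genes was 16. The lists were drawn up with earlier results of these data known, so their counts describe the genes and are not independent evidence of a direction.

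Among LXR partners and corepressors 1 of 4 genes tested was higher. *Rxra*, which encodes the partner RXRα, had a log2 fold change of 0.18 (SE 0.15, limma adjusted p = 0.413), which was 0.3 without replicate 1 of ACT + IL-2 and 0.1 without replicate 2, in neither case past the threshold. Of the other known LXR targets 7 of 10 tested were called higher and none was called lower, with a median log2 fold change of 1.34. In 5 of the 10 the ACT + NKTR-214 tumors were all above the ACT + IL-2 tumors (27.1% of all genes tested). In 1 they were all below (15.3% of all genes tested). *Apoc2*, the cofactor of lipoprotein lipase, measured 1.28, 0.642 and 0.761 FPKM in ACT + IL-2 and 5.46, 13.2 and 4.74 FPKM in ACT + NKTR-214 (log2 fold change 2.10, SE 0.26). *Mertk*, a receptor by which macrophages take up dying cells, rose from 3.19 ± 0.968 to 15.1 ± 3.7 FPKM (1.94, SE 0.19), and *Arl4c*, a small GTPase, from 3.81 ± 1.77 to 15.7 ± 3.94 FPKM (1.83, SE 0.22). The remaining higher targets were *Lpl*, *Apoc1*, *Smpdl3a* and *Pltp*, and the groups overlapped for *Apoc1* and *Pltp*.

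*Srebf1*, an LXR target that drives fatty acid synthesis, did not pass the test. It measured 19.5, 17.2 and 21.0 FPKM in ACT + IL-2 and 22.2, 21.8 and 18.6 FPKM in ACT + NKTR-214. The groups overlapped, with a log2 fold change of 0.11 (SE 0.14, limma adjusted p = 0.605). This was 0.03 under scaling to the 75th percentile and 0.02 under quantile normalization. With 1 tumor left out it ranged from 0.04 without ACT + IL-2 replicate 2 to 0.19 without ACT + NKTR-214 replicate 3. Leaving out replicate 3 of ACT + IL-2 gave 0.18, and leaving out replicate 1 of ACT + NKTR-214 gave 0.07. *Lpcat3*, a target that remodels phospholipids, had a log2 fold change of -0.26 (SE 0.15, limma adjusted p = 0.194). Its ACT + NKTR-214 tumors were all below its ACT + IL-2 tumors, though the nearest, at 21.138 and 21.1445 FPKM, were almost level. Of other efflux transporters 1 of 3 tested was higher, *Abca2*, with a log2 fold change of 0.49 (SE 0.16, limma adjusted p = 0.0347), lost with no minimum level (0.0707) and without ACT + IL-2 replicate 2 (0.0941) or ACT + NKTR-214 replicates 1 (0.142) or 2 (0.113).

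Lipoprotein uptake receptors were called in both directions. Of 8 genes 5 were higher and 2 were lower. Those higher included the scavenger receptors *Cd36* (11.4 ± 6.58 to 43.1 ± 9.18 FPKM, log2 fold change 1.93, SE 0.26) and *Msr1* (7.28 ± 2.5 to 24.3 ± 3.86 FPKM, 1.64, SE 0.19), with *Olr1*, *Lrp1* and *Vldlr*. Among the lower ones was *Lrp8*, the apolipoprotein E receptor 2 (log2 fold change -1.20, SE 0.16). The HDL receptor gene *Scarb1* did not pass (log2 fold change -0.33, limma adjusted p = 0.124).

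Of the genes of ester storage and hydrolysis 5 of 6 were higher and none was lower. *Soat2*, the second esterifying enzyme, rose from 0.6 ± 0.0757 to 3.4 ± 0.167 FPKM (log2 fold change 1.46, SE 0.13), a level well under that of *Soat1*. *Plin2*, the coat protein of lipid droplets, rose from 63.4 ± 19.7 to 132 ± 13.5 FPKM (1.09, SE 0.2), and *Lipa*, the lysosomal acid lipase that supplies NPC2 and NPC1 with free cholesterol, from 29.9 ± 7.3 to 54.1 ± 6.79 FPKM (0.86, SE 0.18, limma adjusted p = 0.0017). Among genes of sterol transfer 4 of 9 were higher and 1 was lower, the latter a share close to the 8.28% over all genes tested. *Gramd1b*, which carries cholesterol from the plasma membrane to the endoplasmic reticulum, had a log2 fold change of 0.94 (SE 0.15), *Scarb2*, a lysosomal membrane protein, 0.83 (SE 0.15), and the lower gene, *Stard4*, a soluble sterol carrier, -0.63 (SE 0.16).

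Oxysterol genes were higher in 4 of 5 tested, with none lower. Besides *Cyp7b1* these were *Cyp27a1*, which makes 27-hydroxycholesterol (log2 fold change 1.01, SE 0.24, limma adjusted p = 0.00535, lost without ACT + IL-2 replicate 2 at 0.0944, under quantile normalization at 0.0532 and with no minimum level at 0.0623), *Hsd3b7*, a bile acid enzyme (0.53, SE 0.16), and *Gpr183*, the EBI2 receptor for oxysterols made by way of *Ch25h* and *Cyp7b1*. *Gpr183* measured 0.271, 0.208 and 0.0326 FPKM in ACT + IL-2 and 1.13, 1.34 and 0.803 FPKM in ACT + NKTR-214, without overlap (log2 fold change 0.83, SE 0.12, limma adjusted p = 6.79e-05). The *Hsd3b7* call was lost without ACT + IL-2 replicate 2 or 3 or ACT + NKTR-214 replicate 2 (adjusted p = 0.0566, 0.0608 and 0.0907).

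Sterol synthesis genes, which the SREBP-2 transcription factor turns on when cell cholesterol is low, were measured for comparison. None of 15 was higher, with a count of 0 also at an unadjusted p under 0.05, and 13 were lower, against 8.28% of all genes tested, with a median log2 fold change of -1.53. Of the melanocyte markers 6 of 8 were lower too, with a median of -0.86. The part of the cell type shifts in the sterol synthesis results was not tested. In 13 of the 15 sterol synthesis genes each ACT + NKTR-214 tumor was below each ACT + IL-2 tumor. That order was found in 15.3% of all genes tested and is the reverse of the order seen for *Abca1*, *Abcg1* and *Apoe*.

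**Figure D4:**
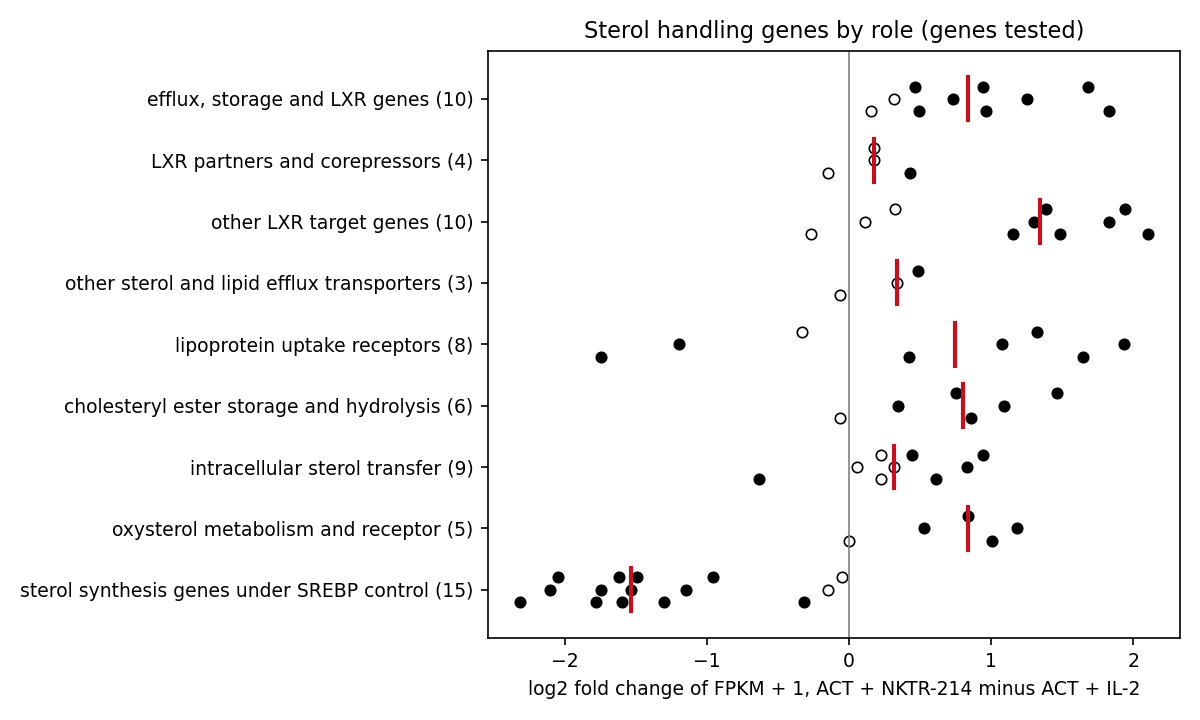
Log2 fold change of FPKM + 1 (ACT + NKTR-214 minus ACT + IL-2) of every tested gene in each role list, with the number tested in parentheses. Points are genes, filled where the adjusted p passed the threshold, and red lines are list medians. The 10 genes described first lie right of 0, most sterol synthesis genes lie far left of it, and *Lrp8* (-1.20) sits left among the uptake receptors.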

How the data were processed

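Total RNA of whole tumors was prepared with a column kit (RNeasy) and sequenced as single-end libraries. The authors mapped the reads to GRCm38 (HISAT2 2.0.4), obtained gene counts with HTSeq, and deposited them only as FPKM, not log-transformed, with a column for each tumor. All 6 columns were used. FPKM corrects for exon length and mapped fragments and for no other difference between libraries, and the use of strand in counting is not given in the sources used here.

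Groups were taken from the sample labels. Values were transformed to log2(FPKM + 1), genes with a mean of at least 0.1 FPKM were kept, and ACT + NKTR-214 was compared with ACT + IL-2 in limma 3.58.1 under R 4.3.3 (lmFit, then eBayes with trend), and p-values were adjusted by Benjamini-Hochberg over the 14172 genes at a threshold of 0.05. The fit was tested on simulated data. Ratios and marker means were tested by exact permutation of the tumors, two-sided. Tables were computed in Python 3.11.15 with numpy 2.4.6 and pandas 2.3.3, and figures drawn with matplotlib 3.10.9.

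Depth was inferred from 351 low genes whose values were whole multiples of 1 step (within 0.02), with exon lengths from GENCODE vM21; intervals on reads cover counting error only.

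The 10 genes and all lists were chosen with earlier results of these data known. Named were the 10 genes, up to 3 called genes per list with a mean of at least 1 FPKM and the largest change, *Rxra*, *Lipa*, *Cyp7b1*, *Gpr183* and *Srebf1*, and the 3 genes most like each called gene. The values of some genes that this rule names are not reported here. Other genes were named after their values were seen. The calls, and the log2 fold changes of the genes named by rule from the member and pathway lists, were recomputed under up to 14 alternatives: 0.1 as pseudocount, a minimum mean of 1 or none, scaling to the 75th percentile, quantile normalization, no trend, no moderation, the replicate number as a block, and each tumor left out. Ratios and marker means were recomputed under the pseudocount, scaling, normalization and left-out tumors only.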

Additional observations from a re-analysis of the deposited data

How the results depend on the processing

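All 10 genes kept a positive log2 fold change in all 14 alternatives. The count of 8 higher genes fell to 5 with no minimum on the mean FPKM and to 0 when the variance was not moderated, where each gene relied on its own 3 tumors per group, and without 1 tumor it lay between 6 and 8. Without moderation 101 genes of all tested were higher and 27 lower, against 2940 and 1173, and 1 pathway gene was higher, 1 lower and 6 sterol synthesis genes lower. Scaling moved the balance of all calls, from 2940 higher and 1173 lower to 3370 and 3501 under 75th percentile scaling and to 2691 and 4525 under quantile normalization, which shifted the median of all genes by -0.143; pathway genes called lower went from 3 to 6 under both. With 1 tumor left out, genes called lower ranged from 636 (without ACT + IL-2 replicate 3) to 1996 (without ACT + IL-2 replicate 2), with 680 without ACT + NKTR-214 replicate 2, pathway genes called higher from 16 (without ACT + IL-2 replicate 2) to 27 and pathway genes called lower from 3 to 5. *Abca1* relative to the macrophage markers was -0.01 and turned to 0.05 with a pseudocount of 0.1 and to 0.06 under quantile normalization, with a range of -0.19 to 0.19 when 1 tumor was left out, including 0.04. The B cell marker mean, at -0.01, ranged from -0.05 to 0.06 without 1 tumor, including 0.01. The causes were not tested.

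The replicate numbers stand for different mice, and same-numbered tumors did not deviate together (correlations of -0.206, -0.067 and 0.396; only the replicate 3 tumors matched their own number best). With the replicate number as a block, 3090 genes were higher and 1227 lower, 8 of the 10 genes were called, and no call among the 10 genes changed.

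With 3 tumors per group the precision is set by the spread between tumors, and counting error is largest for the values with the fewest reads, those of *Nr1h3* and *Ch25h*.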
